A study of Mus musculus with 13 samples.

Results

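These data are 4 lists of genomic regions bound by the glucocorticoid receptor (GR, the product of Nr3c1) in mouse embryonic fibroblasts given dexamethasone (Dex, a synthetic glucocorticoid) and nothing else, in wild-type cells and in cells with a zinc mutant receptor. All rows of the 4 lists were used, which gave 1379 peaks from 4 of the 13 samples of the series, whose lists here hold 26052 peaks in all. The wild-type group had 2 libraries (genotype GR wt / wt), with 412 and 854 peaks, and the mutant group had 2 libraries (genotype GR Zn / Zn), with 53 and 60 peaks. Both groups were fibroblasts of C57BL/6 male embryos taken at day 13.5, without head and inner organs, grown for 7 days and treated with 1 µM Dex in ethanol for 16 h. The same antibody was used throughout, and no knockout library under Dex alone was analysed here. The series' other lists come from Dex for 16 h with lipopolysaccharide (LPS, a bacterial product that sets off inflammatory signalling; 100 ng/µl as labelled, for 3 h). There are 18953 peaks specific to wild type, 3533 shared ones and 2187 specific to the mutant, each 200 bp wide, from which the authors had removed peaks of knockout cells, as the file names put it.

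The lists give positions, widths and the nearest annotated gene in the mm10 build, with no peak height, read count or library depth. Distances to a gene start run from the middle of a peak. A region missing from a list was therefore not called there, which is not a measurement of zero binding, and the intervals below cover counting error only. The labels do not say whether the 2 libraries of a genotype came from separate embryos or cultures, so their spread may be technical. With 2 libraries against 2, the smallest two-sided p of an exact permutation test is 0.33. No comparison here could pass a threshold of 0.05. Expression of fibroblast markers could not be checked from peak positions: 0 of 10 fibroblast markers had a peak in any of the 4 libraries, and 0 of the markers of macrophage, endothelium, muscle, neuron and epithelium did. Over all genes, 1.19% had a peak in either wild-type library and 0.134% in either mutant library. Counts of 0 in lists this short are also what that background would give.

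GR waits in the cytoplasm bound to chaperones, enters the nucleus when hormone binds, and reads DNA with a pair of zinc fingers. As a dimer it binds a palindrome of the arms AGAACA and TGTTCT held 3 bases apart, the glucocorticoid response element, and it can also be held at sites of other factors such as AP-1 and NF-kB. Genes such as Fkbp5, Per1 and Zbtb16 respond to the hormone in many tissues.

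Promoters give the only stretches of bound sequence that could be read here. Peaks of the 4 libraries overlapped 8 RefSeq promoters (250 bases before to 50 after a start, build GRCm38.p6) at 7 gene names, out of 32851 promoters searched. The stretches below are the parts of 4 of them that lie under a peak, written along the gene's strand, and they are shown as the 2 with the element and 2 of the 3 gene names with a peak of both mutant libraries (the third, Gm13830, shares the Dynll1 stretch). The first lies under peaks of both wild-type libraries, the second under a peak of wild-type library 1, the third under peaks of wild-type library 2 and both mutant libraries, and the fourth under peaks of both mutant libraries. Capitals mark the best match to AGAACA, any 3 bases and TGTTCT on either strand, with up to 2 mismatches in the arms.
A230028O05Rik, chr16:25059389-25059635, + strand: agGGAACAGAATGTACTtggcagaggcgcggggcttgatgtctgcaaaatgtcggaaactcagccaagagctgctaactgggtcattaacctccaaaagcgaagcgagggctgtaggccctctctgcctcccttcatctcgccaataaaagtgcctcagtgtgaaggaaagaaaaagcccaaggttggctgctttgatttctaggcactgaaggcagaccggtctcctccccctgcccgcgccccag
Slc10a6, chr5:103629417-103629653, - strand: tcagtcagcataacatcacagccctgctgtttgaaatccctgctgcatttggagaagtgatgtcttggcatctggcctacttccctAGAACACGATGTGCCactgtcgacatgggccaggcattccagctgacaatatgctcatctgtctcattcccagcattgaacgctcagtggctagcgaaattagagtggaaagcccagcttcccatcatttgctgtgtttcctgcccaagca
Dynll1, chr5:115300941-115301226, - strand: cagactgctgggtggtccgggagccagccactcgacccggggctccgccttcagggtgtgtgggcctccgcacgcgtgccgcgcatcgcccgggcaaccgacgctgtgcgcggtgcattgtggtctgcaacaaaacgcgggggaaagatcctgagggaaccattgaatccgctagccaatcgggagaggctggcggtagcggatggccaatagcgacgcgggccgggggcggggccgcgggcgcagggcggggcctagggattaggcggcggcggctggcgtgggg
Gm41331, chr15:60141748-60141960, + strand: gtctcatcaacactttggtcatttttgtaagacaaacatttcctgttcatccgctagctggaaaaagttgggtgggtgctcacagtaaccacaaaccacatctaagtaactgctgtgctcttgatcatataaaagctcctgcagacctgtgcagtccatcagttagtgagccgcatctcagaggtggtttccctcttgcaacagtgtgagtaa

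The element was found in 2 of the 8 promoters, in A230028O05Rik and in Slc10a6, and each match carried 2 mismatches. Across all 32851 promoters, 606 (1.85%) held a match as good. A230028O05Rik is a RIKEN transcript of unknown role, and its peak was centred at -229 bases from the start in library 1 and at -205 in library 2. Slc10a6 encodes a carrier of sulphated steroids. Both peaks overlapped a wild-type-specific peak of the Dex and LPS lists. Of the 5 promoters under a peak of mutant library 1 and the 4 under a peak of mutant library 2, 0 held the element, its core (ACA, 3 bases, TGT; in 6.85% of all promoters) or the arm AGAACA (in 19.0%). The 4 are all among the 5. Dynll1 and Gm13830 share a stretch and the promoters of Gm41331 overlap each other, so these are fewer separate stretches than promoters. The Dynll1 stretch, from the gene for a dynein light chain that shares this start region with Gm13830 on the other strand, had 71.3% G and C. The A230028O05Rik stretch had 55.1%. A match is a run of letters and not a measured site, and with so few promoters the counts are only a description.

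Known target genes that had a peak had it in wild type and not in the mutant. Of 40 genes listed as classic GR targets, 8 had a peak assigned to them in either wild-type library (20%), against 596 of 49943 genes in the gene table (1.19%). For both wild-type libraries the counts were 5 of 40 (12.5%) and 219 of 49943 (0.438%). This list and those below were chosen with earlier results of these data known. The part of that choice in these shares was not tested. In the mutant libraries 0 of the 40 had a peak, where 67 of 49943 genes (0.134%) had one, so a count of 0 in a list of this size is also what that background would give. Of the 40 genes, 5 on other chromosomes than 10 to 14 and Y had a wild-type peak, where 166 genes in all did. How many of the 40 lie on those chromosomes was not counted, so no share is given for them.

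Fkbp5 encodes a co-chaperone that lowers the receptor's affinity for hormone. Its peak in library 1 was 362 bp wide and centred at -608 bases from the gene start, and in library 2 it was 440 bp wide and centred at -650 (chr17:28517951-28518394). That start is the one deposited with the peaks (28517524, minus strand), while the RefSeq gene table has it at 28486149, 31.8 kb from the region. The left borders of these peaks on the chromosome, 28517951 and 28517955, nearly coincide. Library 1 had another peak inside the gene, 97.2 kb from the start. Both positions overlapped wild-type-specific peaks of the Dex and LPS lists, which held 15 such peaks in and within 20 kb of the gene and 0 mutant-specific ones.

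Per1, a repressor of the circadian clock, had peaks 1843 and 1866 bases into the gene, 308 and 357 bp wide (chr11:69096905-69097261). This site was in the shared Dex and LPS list, so it was called in mutant cells under the combined treatment and not in either mutant library under Dex alone. Per2, another clock repressor, had a peak 22.8 kb into the gene in wild-type library 1, at a wild-type-specific Dex and LPS site. Of 17 clock genes listed, these 2 had a wild-type peak, beside 1.19% of all genes, and 0 had a mutant one, beside 0.134%.

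Zbtb16, which encodes a zinc finger repressor, had peaks of 277 and 242 bp far inside the gene, 98.6 kb from its start in both libraries (chr9:48737440-48737719). The site coincided with 1 of 7 wild-type-specific Dex and LPS peaks around the gene, and the other 2 lists held 0 there. Hif3a, a member of the hypoxia-inducible factor family, had peaks of 263 and 305 bp at 4069 and 4087 bases from the start (chr7:17058188-17058492). Its nearest Dex and LPS peak lay 31 bases away without touching.

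Cdkn1a, the gene for the cell cycle inhibitor p21, was the only 1 of the 40 targets with a mutant peak in or within 20 kb of it, where 8 had a wild-type peak. The share of all genes with a peak in such a window was not computed, so these counts are only a description. Wild-type library 2 had 3 peaks downstream of the gene, 11.9, 13.6 and 15.6 kb from its start, of 1151, 283 and 885 bp. Library 1 had 1, of 238 bp, inside the third of these (chr17:29106176-29107060). A further region begins 137 bases on (chr17:29107198-29108496) and was assigned to the next gene, Rab44, whose start lies 6.30 kb on from the middle of the library 1 peak. That region held a peak of 1298 bp in wild-type library 1, 2 peaks in library 2 and a peak of 307 bp in mutant library 1, with none in mutant library 2. The regions held by wild type alone were thus assigned to Cdkn1a, and the neighbouring region held in both genotypes to Rab44. Of the 4 regions, only the 1151 bp one overlapped a Dex and LPS peak, of the shared list, and in and within 20 kb of Cdkn1a there were 1 wild-type-specific, 3 shared and 4 mutant-specific Dex and LPS peaks.

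**Figure D1:**
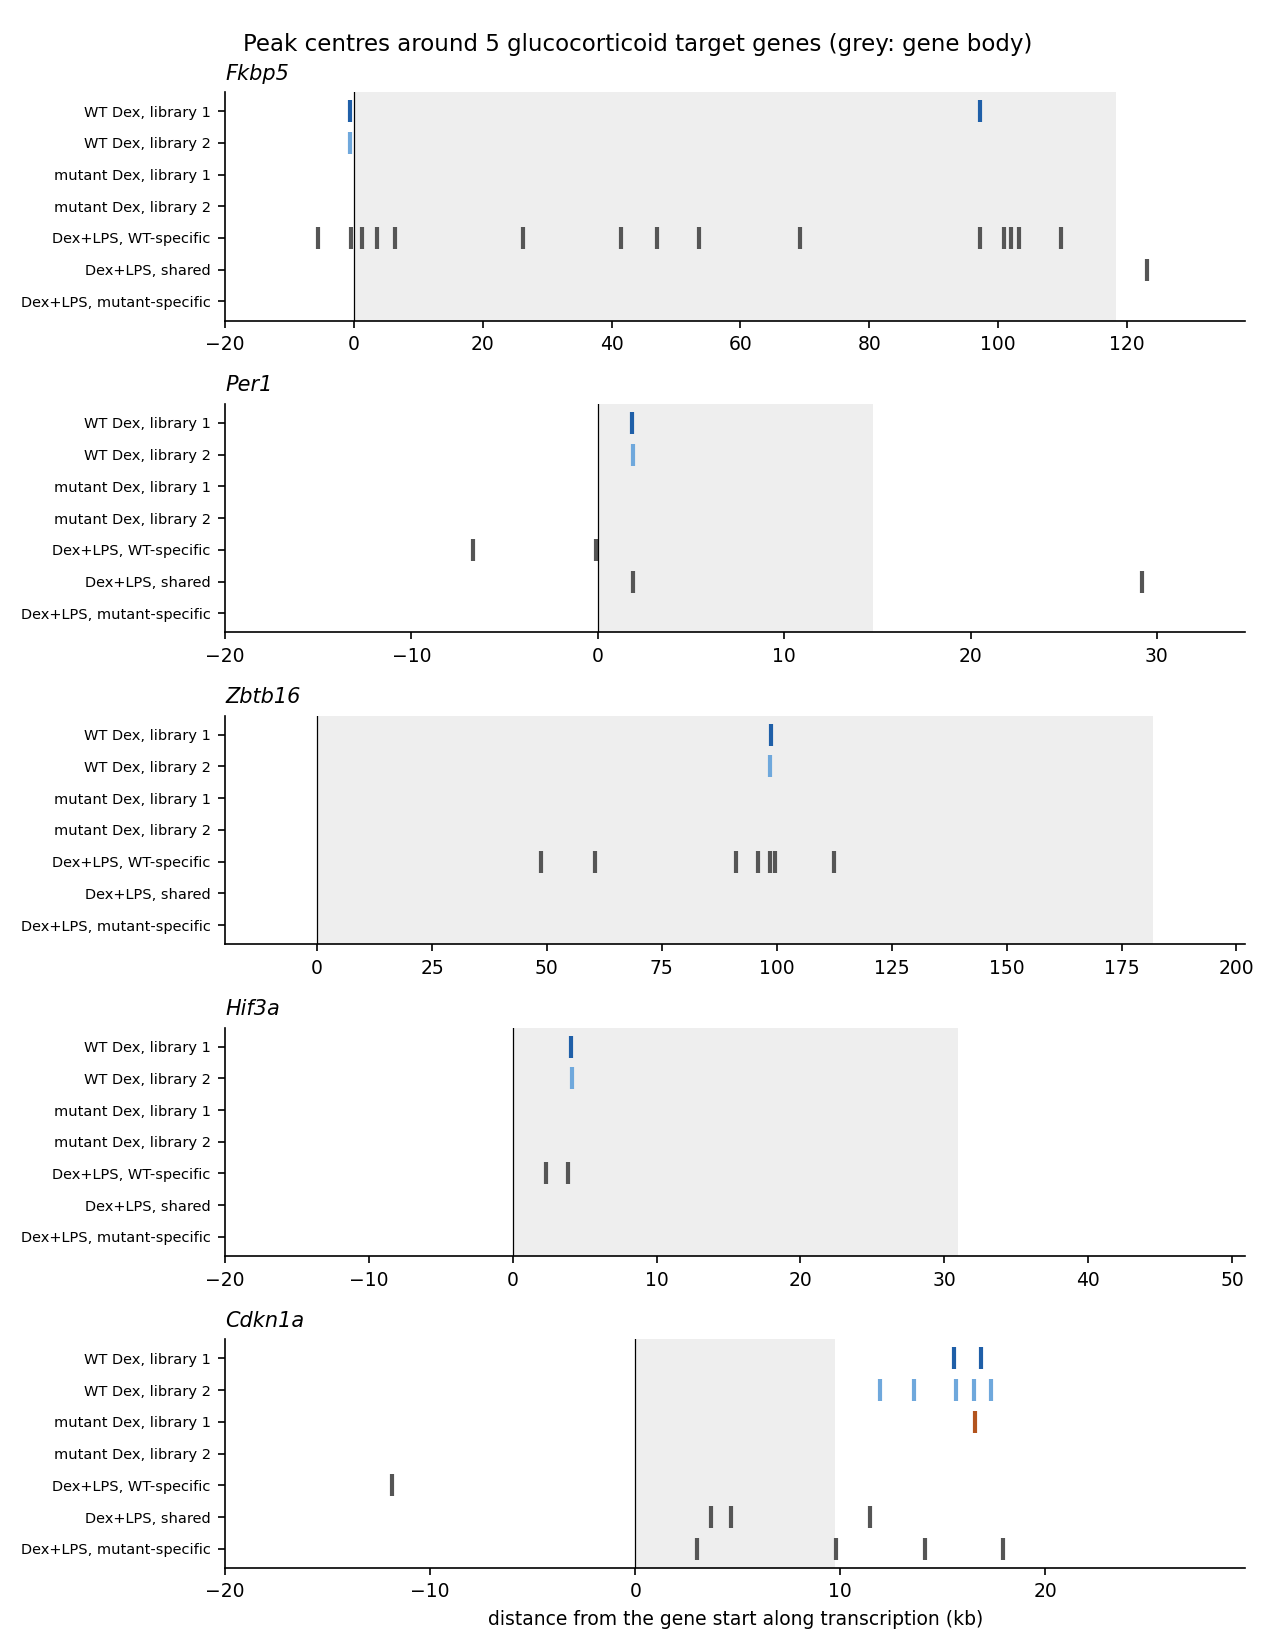
Peak centres around the 5 GR target genes with peaks in both wild-type libraries, plotted as distance from the gene start along transcription (kb), with 1 row for each Dex library and for each Dex and LPS list. Grey marks the gene body. Each gene has a site where ticks of both wild-type libraries line up, Fkbp5 has a further tick of library 1 and Cdkn1a further ticks of library 2, and the only mutant tick under Dex alone stands beside Cdkn1a, in the region assigned to Rab44.

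Another 3 targets had a peak in 1 wild-type library. Sesn1, a stress-induced brake on mTORC1 signalling, had a 231 bp peak 83.9 kb into the gene in library 1, at a wild-type-specific Dex and LPS site. Lpin1, a phosphatidate phosphatase, had a 228 bp peak 14.2 kb before its start in library 2. Pdk4, the kinase that shuts off pyruvate dehydrogenase, had a 262 bp peak 18.1 kb from its start on the downstream side in library 2, at a site of the mutant-specific Dex and LPS list. So of the 8 targets, 3 were in 1 library alone. The other 32 of the 40 target genes, among them Tsc22d3, Dusp1 and Klf9, had no peak assigned to them in any of the 4 libraries.

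Other lists held few genes with a peak, as did the gene table as a whole (1.19% of genes in either wild-type library and 0.134% in either mutant library). Of 30 genes of NF-kB signalling and inflammation, 12 AP-1 genes and 14 of adipogenesis and lipid handling, 0 had a peak in any of the 4 libraries. Of 30 matrix and fibroblast genes, 1 had a wild-type peak: Thbs1, which encodes the matrix glycoprotein thrombospondin, with a 1188 bp peak 16.6 kb from its start in library 2 and its nearest Dex and LPS peak 16.98 kb away. Among 15 genes for GR, its chaperones and cofactors, the coactivator Ncoa1 had the only peak, in mutant library 2 (210 bp, 59.3 kb into the gene, at a shared Dex and LPS site).

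Beyond the lists, the regions held by both wild-type libraries and neither mutant library, outside chromosomes 10 to 14 and Y and in or within 10 kb of their gene, came to 23 regions at 19 genes. At the widest region of each gene, 11 of 19 lay inside the gene, 7 overlapped a wild-type-specific Dex and LPS peak, 1 overlapped a mutant-specific one and 11 overlapped none. Without the limit of 10 kb, 14 of 45 such regions (31.1%) lay inside a gene and 11 overlapped a wild-type-specific peak. Over all 274 regions outside these chromosomes the counts were 76 (27.7%) and 35. The limit of 10 kb itself favours regions inside a gene. The 7 of the 19 genes at a wild-type-specific peak were Fkbp5, Zbtb16, A230028O05Rik, Klf13 (a Krüppel-like transcription factor; 391 and 317 bp), Zhx3 (a zinc finger and homeobox protein; 393 and 308 bp), 1600010M07Rik (293 and 378 bp) and Dnm3 (a dynamin; 232 and 392 bp). Frmd8, whose protein serves the iRhom sheddase complex, was the one at a mutant-specific site. Ptpn12, a tyrosine phosphatase gene, and Calb2, the gene for calretinin, had both wild-type peaks and no Dex and LPS peak within 50 kb. The same held for Lrrc4c, 2700054A10Rik and Mir3084-2, with the nearest such peak 59.1, 92.2 and 169 kb away. The 4 regions at Gm21083, Gm21190, Gm21119 and Zfp980 lay in runs of closely spaced regions described further on, and 0 of these 4 overlapped a Dex and LPS peak. Hif3a and Cdkn1a make up the rest. The gene 2700054A10Rik also held a region in all 4 libraries (chr17:13590347-13590693). It held further regions in both wild-type libraries and mutant library 1. The gene span deposited for Mir3084-2 runs from 24942235 to 60774461 on chromosome 19, so that assignment locates little.

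Fewer regions were called in mutant cells by every measure of quantity. Peak numbers averaged 633 ± 313 in wild type and 56.5 ± 4.95 in the mutant (mean ± SD, n = 2 each). Covered sequence was 135023 and 309621 bases against 21369 and 19895, and genes with a peak numbered 300 and 515 against 41 and 50. For these 3 quantities every wild-type library exceeded every mutant library, by 10.52-fold, 9.92-fold and 8.68-fold of the geometric means. The exact permutation p was 0.33 for each, the smallest possible, and 0.44 after Benjamini-Hochberg adjustment over 8 measures.

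The excess was smaller away from chromosomes 10 to 14 and Y. There 119 and 212 peaks were left in wild type and 29 and 30 in the mutant, 5.39-fold apart, with 5.86-fold for covered bases and 3.98-fold for genes (exact permutation p = 0.33, adjusted 0.39 over 7 measures). The 2 wild-type libraries differed from each other by 2.07-fold in number of peaks and the 2 mutant libraries by 1.13-fold. The genotype difference exceeded both. It was 15.1-fold without wild-type library 1 and 7.31-fold without library 2. Depth was not given in the files, and its part in these numbers was not tested.

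Chromosomes 10 to 14 held the larger part of the wild-type lists and Y a large part of the mutant lists. The 5 autosomes and Y held 71.1% and 75.2% of wild-type peaks against 45.3% and 50% of mutant peaks, where 25.1% of genes in the gene table lie on them. Chromosome 10 alone held 80 and 151 wild-type peaks and 0 and 3 mutant peaks. Chromosome Y held 12 and 11 wild-type peaks and 10 and 11 mutant peaks, close to the same number in every library, and this came to 18.9% and 18.3% of the mutant lists. Without Y, chromosomes 10 to 14 held 68.2% and 73.9% of wild-type peaks and 26.4% and 31.7% of mutant peaks. The X chromosome held 2 and 3 wild-type peaks and 0 mutant peaks. On the chromosomes outside this block, no library had more than 10.0% of its list on any 1 chromosome. The cells were male in all 4 libraries.

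**Figure D2:**
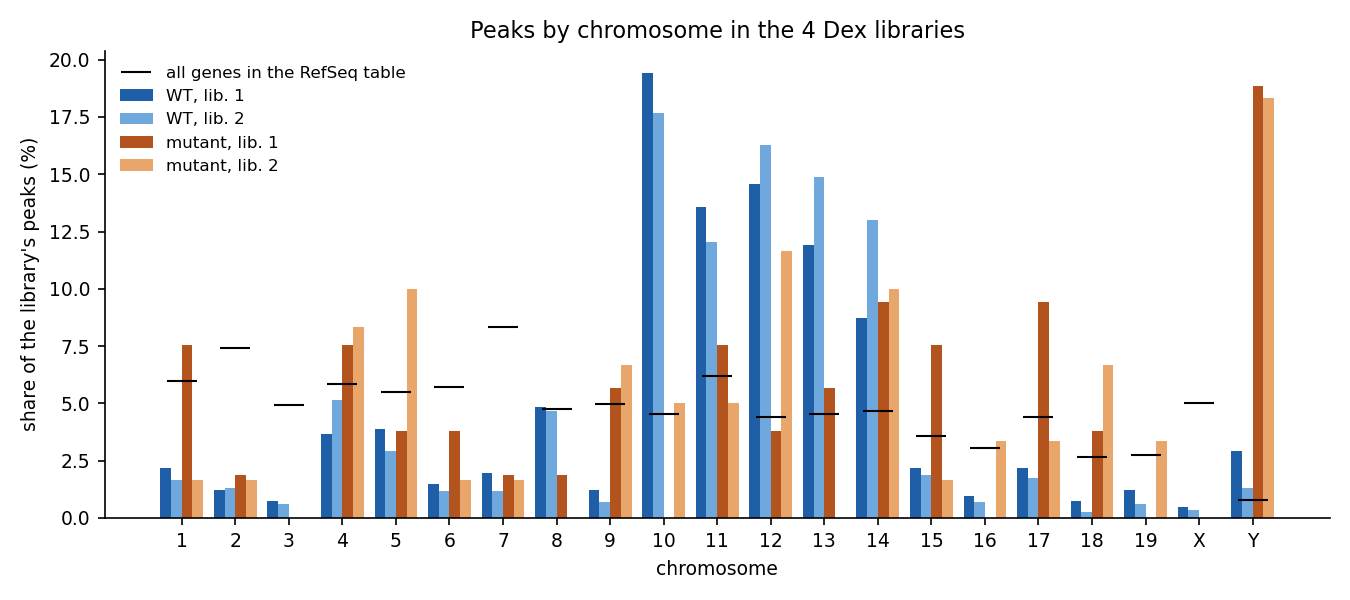
Share of each Dex library's peaks on each chromosome (%), with the share of all genes of the RefSeq table as a black dash. Bars of the wild-type libraries stand above the gene share on chromosomes 10 to 14, at up to 19.4% on chromosome 10, and bars of the mutant libraries are highest on Y, at 18.9% and 18.3%.

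Overlapping peaks of the 4 libraries by at least 1 bp merged into 1107 regions. Of these, 1030 were held by wild type alone, 51 by both genotypes and 26 by mutant alone. The wild-type-only regions were mostly in 1 library: 225 in library 1, 662 in library 2 and 143 in both. Of the 51 common regions, 20 were in all 4 libraries, 18 in both wild-type and 1 mutant library, 5 in both mutant and 1 wild-type library and 8 in 1 of each. Only 5 of the 26 mutant-only regions were in both mutant libraries. A total of 274 regions lay outside chromosomes 10 to 14 and Y, of which 230 were wild type only, 32 common and 12 mutant only.

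Agreement between the 2 libraries of a genotype depended on the chromosomes for wild type. On chromosomes 10 to 14 and Y, 116 of 293 peaks of wild-type library 1 were found in library 2 (39.6%, 95% exact binomial interval 34.0 to 45.4), and elsewhere 68 of 119 (57.1%, 47.8 to 66.2). Of library 2, 113 of 642 (17.6%, 14.7 to 20.8) were found in library 1 on these chromosomes and 69 of 212 (32.5%, 26.3 to 39.3) elsewhere. The intervals inside and outside do not overlap for either library. For the mutant libraries the order was the other way, with 17 of 24 and 17 of 30 found on these chromosomes and 14 of 29 and 14 of 30 elsewhere, and here the intervals overlap. By gene name, 219 genes were common to both wild-type libraries, 73.0% of those of library 1 and 42.5% of those of library 2. For the mutant libraries 24 genes were common, 58.5% and 48.0%. A gene can be common without the region being so, since library 2 had 36 genes with 4 or more peaks.

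Regions common to the genotypes sat at more nearly the same bases in both wild-type libraries than wild-type-only regions did. Among regions with 1 peak in each wild-type library, the distance between the 2 peak centres had a median of 49.8 bp in the 142 without a mutant peak and 6.0 bp in the 35 with one. The left borders lay within 20 bp of each other in 42 of the 142 (29.6%) and in 26 of the 35 (74.3%). Outside chromosomes 10 to 14 and Y the medians were 27.0 bp over 45 regions and 9.0 bp over 22, and on them 70.0 bp over 97 and 4.5 bp over 13. Widths moved with this in part: medians in wild-type library 1 were 290 bp without and 273 bp with a mutant peak outside chromosomes 10 to 14 and Y, and 296 and 508 bp on them. In library 2 they were 317 and 318.5 bp outside, and 344 and 654 bp on them. The part of width in the distances was not tested. These are positions of peaks of the same 2 libraries and not independent replicates, so no test was made.

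**Figure D3:**
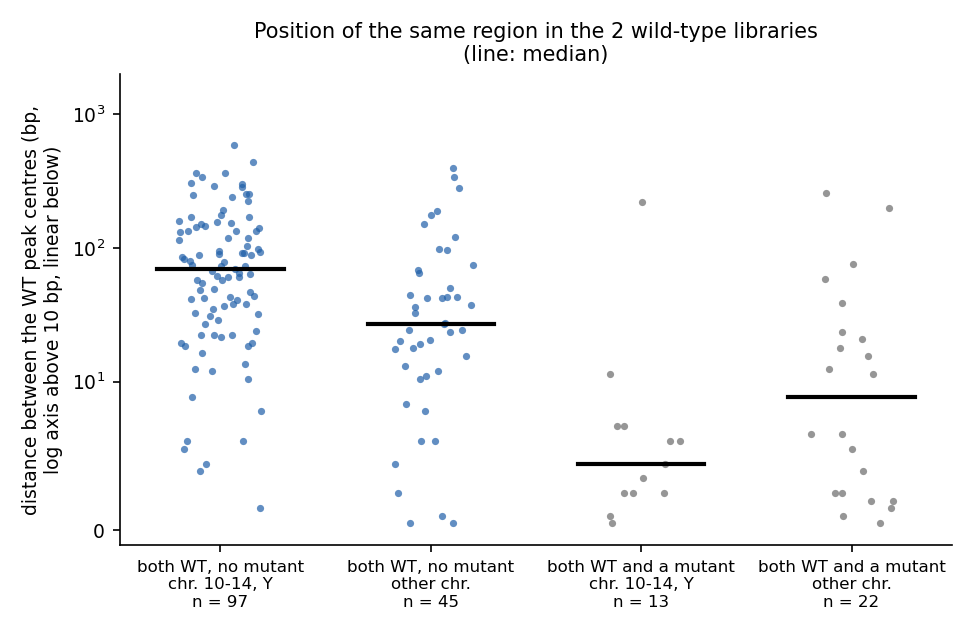
Distance between the centres of the peaks of the 2 wild-type libraries in the same region (bp, log axis above 10 bp and linear below), for regions without and with a mutant peak, on chromosomes 10 to 14 and Y and on the others. Each point is a region and each line a median, which falls from 70.0 and 27.0 bp in regions without a mutant peak to 4.5 and 9.0 bp in regions with one.

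Peaks found in the other wild-type library were somewhat wider than those that were not, with medians of 296 against 259 bp in library 1 and 335 against 290 bp in library 2. In mutant library 2 they were 321 against 214 bp, and in mutant library 1 the order was reversed, 337 against 383 bp. Width as such did not separate the genotypes. Median widths were 273 and 298.5 bp in wild type and 347 and 265 bp in the mutant, which overlap (exact permutation p = 1).

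Of the 20 regions held by all 4 libraries, 7 stood at 2 gene names, Zfy1 and Gm5458, and the other 13 at 13 different ones. By chromosome, 6 were on chromosome Y, 6 on chromosomes 10 to 14 and 8 elsewhere. The 4 assigned to Zfy1, a Y-linked zinc finger gene, lie between 536 and 657 kb from its start, so the gene name marks only the nearest annotation. At one of them, chrY:258189-259457, the peaks were 1216 and 1269 bp wide in wild type and 1222 and 1222 bp in the mutant. At another, chrY:259830-263681, the summed widths were 3573 and 3852 bp in wild type and 1706 and 1350 bp in the mutant. Over the 20 regions the median widths were 429 and 461.5 bp in wild type and 370.5 and 330.5 bp in the mutant. Zfy1 was also the gene with most peaks in both mutant libraries, with 7 in each, against 6 and 4 in the wild-type libraries. All of these peaks lie in the 4 regions held by every library. At chrY:259830-263681 wild-type library 2 had 1 peak of 3852 bp and mutant library 1 had 3 peaks of 1706 bp in all. A higher count here thus does not stand for more covered sequence.

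Gm5458 on chromosome 14 had 3 such regions within chr14:19415727-19418911. In the region chr14:19418572-19418911 the widths were 335, 336, 334 and 340 bp, nearly the same in every library. A region 8.60 kb before 4930517M08Rik on chromosome 17 had widths of 427, 434, 407 and 434 bp, and one inside Aida (which encodes a protein that binds axin), 2.30 kb from its start, had 383, 316, 326 and 310 bp. Regions at Pitpnc1, which encodes a phosphatidylinositol transfer protein, at D5Ertd579e, at 2700054A10Rik, at Rex2, at Vmn2r-ps159 and at Gm21379 complete the widest 15. Of the 18 such regions with 1 peak in each library, 8 had all 4 left borders within 20 bp. Zfy1, Rex2 and Vmn2r-ps159 belong to multicopy gene families, and the sources used here do not say how reads with several matches were counted, so positions there are uncertain.

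The 5 regions held by both mutant libraries and neither wild-type library lay at a distance from the genes they were assigned to. These were Gm20063 (243 and 244 bp, 737 kb from the start), Grid1 (a glutamate receptor subunit gene; 419 and 337 bp, 869 kb), Pcdh17 (a protocadherin gene; 347 and 335 bp, 622 kb), 4933412E24Rik (253 and 277 bp, 125 kb) and Dtna (the gene for dystrobrevin alpha; 264 and 258 bp, 41.8 kb before the start). Left borders differed by at most 5 bp between the 2 mutant libraries. The region assigned to 4933412E24Rik is the one that covers the Gm41331 promoter printed above. 0 of the 5 overlapped a Dex and LPS peak, which with 5 regions sets no useful limit.

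Some regions stood in dense runs. Counting stretches of at least 5 regions with gaps of up to 100 kb, there were 12 runs with 118 of the 1107 regions (10.7%). Outside chromosomes 10 to 14 and Y they made up 94 of 274 regions (34.3%). The 2 runs with most regions were on chromosome 8, with 19 regions in 227 kb at 4930467E23Rik and 6820431F20Rik and 18 in 149 kb at Gm21119 and 2610005L07Rik, all 37 without a mutant peak. Most regions had none: of all 274 outside chromosomes 10 to 14 and Y, 230 were held by wild type alone. 6820431F20Rik was the gene with most peaks in wild-type library 2, with 15, and shared first place in library 1 with Zfy1 and the kainate receptor gene Grik2, with 6 each. Runs on chromosome 4 lay at zinc finger genes, among them Zfp980, Zfp982, Zfp987 and Zfp600, and 4 of these 5 runs also held mutant peaks. These are clusters of similar genes, where the caution on reads with several matches applies. Leaving out both the runs and chromosomes 10 to 14 and Y, 84 and 138 peaks were left in wild type and 27 and 26 in the mutant, 4.06-fold apart.

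Most regions of either genotype lay far from gene starts. The share of peaks inside a gene was 25% and 25.9% in wild type and 30.2% and 30.0% in the mutant, and the share within 5 kb of a start was 2.43% and 2.34% against 5.66% and 8.33%. In both measures the groups did not overlap (exact permutation p = 0.33, adjusted 0.44). The mutant shares inside a gene stand for 16 and 18 peaks. Their 95% exact binomial intervals, 18.3 to 44.3% and 18.9 to 43.2%, take in both wild-type shares. The mutant shares within 5 kb stand for 3 and 5 peaks, and their 95% exact binomial intervals, 1.18 to 15.7% and 2.76 to 18.4%, take in the wild-type shares for mutant library 1 and lie just above them for mutant library 2. Outside chromosomes 10 to 14 and Y, 32.8% and 25.5% of wild-type peaks and 34.5% and 43.3% of mutant peaks were inside a gene, and 5.88% and 4.72% against 6.90% and 10.0% were within 5 kb.

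The median distance to the gene start was 161 and 145 kb in wild type and 172 and 161 kb in the mutant over all chromosomes, which overlap (exact permutation p = 0.67). Away from chromosomes 10 to 14 and Y it was 69.8 and 66.5 kb against 66.1 and 40.6 kb, with mutant peaks nearer, so the order of the genotypes turned with the chromosomes used. On chromosomes 10 to 14 and Y it was 205 and 165 kb against 416 and 394 kb, where the peaks assigned to Zfy1 lie. Peaks over 500 kb from the start made up 28.3% of both mutant lists and 18.9% and 14.5% of the wild-type lists.

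**Figure D4:**
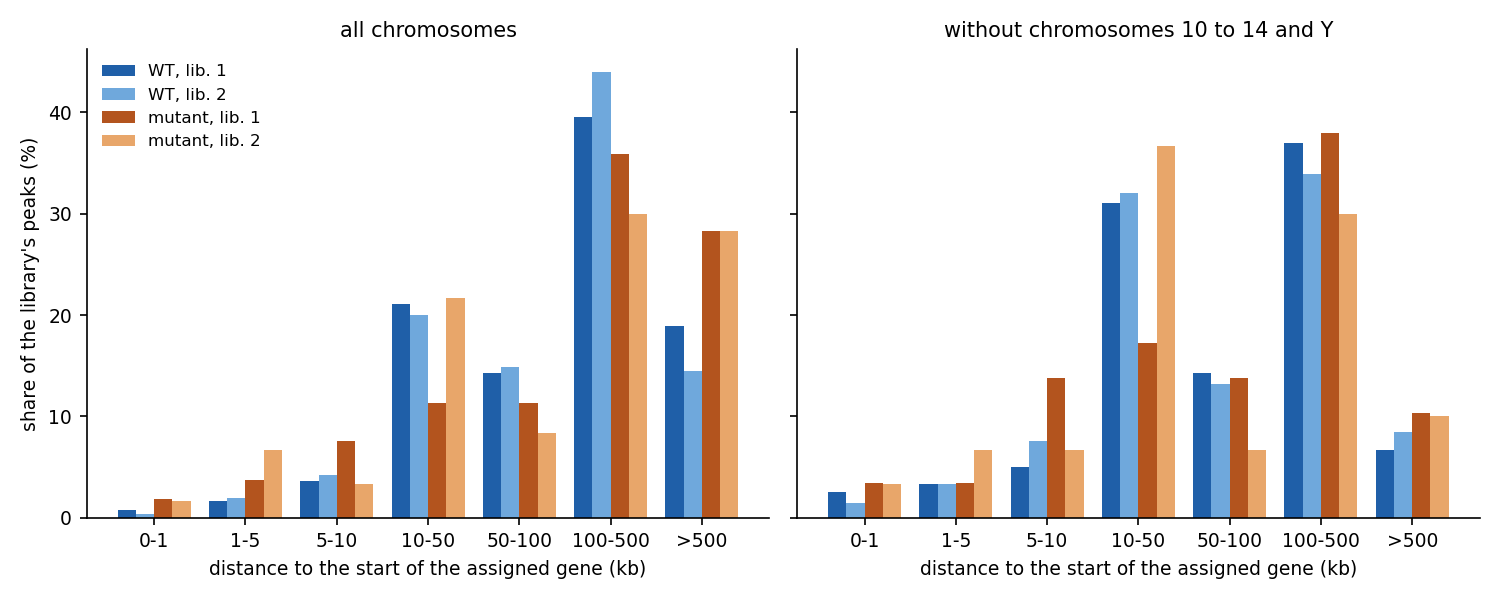
Share of each Dex library's peaks (%) by distance to the start of the assigned gene (kb), on all chromosomes and without chromosomes 10 to 14 and Y. Bars over 500 kb are highest for both mutant libraries on all chromosomes, at 28.3%, and fall to 10.3% and 10.0% without the 5 autosomes and Y.

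Wild-type-only regions lay at or beside sites bound under Dex and LPS more often than regions common to the genotypes did. Of the 1030 wild-type-only regions, 276 (26.8%, 95% exact binomial interval 24.1 to 29.6) overlapped a Dex and LPS peak of any list. Of the 51 common regions 0 did, a count that allows a share of up to 5.88%. Of all 77 regions with a mutant peak, 2 did: the Ncoa1 region and a 210 bp region in 9530036O11Rik, both of mutant library 2 alone. Per library, 104 of 412 and 198 of 854 wild-type peaks overlapped (25.2% and 23.2%), against 0 of 53 and 2 of 60 mutant peaks (0%, which allows up to 5.66%, and 3.33%). Outside chromosomes 10 to 14 and Y, 53 of 230 wild-type-only regions overlapped a Dex and LPS peak (23.0%, 17.8 to 29.0). Of the 32 common regions there 0 did, which allows up to 9.38%.

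The same order held for distance. The median distance to the nearest Dex and LPS peak was 0.73 kb from wild-type-only regions and 95.8 kb from common regions. Within 2 kb of one lay 689 of 1030 (66.9%, 63.9 to 69.8) against 6 of 51 (11.8%, 4.44 to 23.9). Outside chromosomes 10 to 14 and Y these shares were 104 of 230 (45.2%, 38.7 to 51.9) against 4 of 32 (12.5%, 3.51 to 29.0). The median distances there were 2.51 kb from wild-type-only regions and 79.5 kb from common regions. The regions in both wild-type libraries alone were no nearer than those in 1, with 62.2% and 67.6% within 2 kb. Peaks of knockout cells had been removed from the Dex and LPS lists and not from the Dex lists, where no knockout list exists here, and the part of this step in the difference was not tested.

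**Figure D5:**
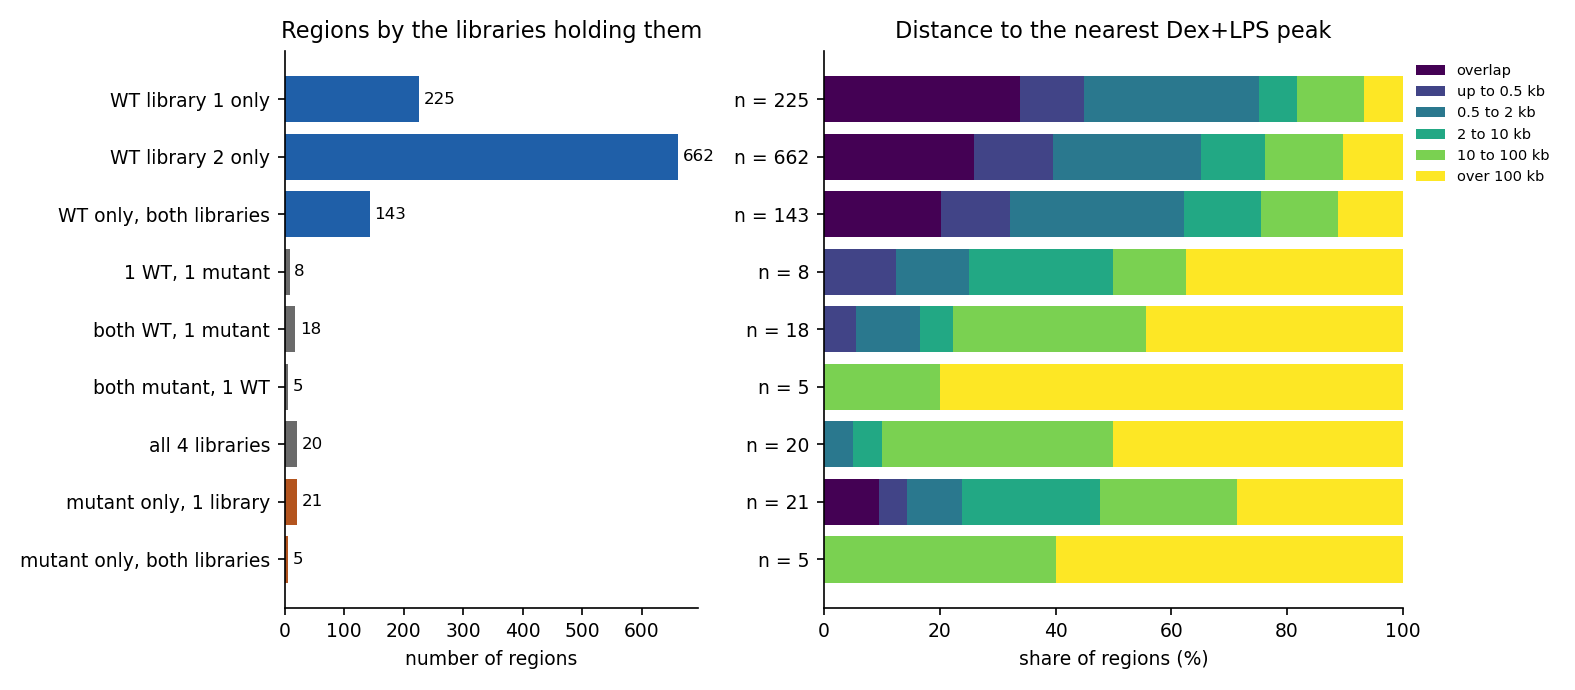
Number of merged regions by the set of Dex libraries that holds them (left) and the share of each set (%) at each distance from the nearest Dex and LPS peak (right). The 3 wild-type-only sets reach 62.2% or more within 2 kb, and the set in all 4 libraries reaches 5.0%, which is 1 of 20 regions.

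Read from the other side, few of the sites bound under Dex and LPS were called under Dex alone. Of the wild-type-specific list, 132 of 18953 peaks (0.696%) overlapped a peak of either wild-type Dex library, of the shared list 111 of 3533 (3.14%) and of the mutant-specific list 44 of 2187 (2.01%). Outside chromosomes 10 to 14 and Y the shares were 0.259%, 0.540% and 0.532%. The mutant Dex libraries overlapped 1, 1 and 0 peaks of these lists. Counted by gene name, of 125 genes with a region in both wild-type libraries and no mutant one, 105 (84.0%) also had a peak of the wild-type-specific or shared list, against 21 of 44 genes with a common region (47.7%). Of all 49943 genes in the gene table, 8287 (16.6%) had one. Outside chromosomes 10 to 14 and Y, 28 of 36 genes of the first set (77.8%) had one, against 16 of 31 with a common region (51.6%).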

How the data were processed

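Chromatin immunoprecipitation sequencing peaks of GR were compared between 2 wild-type and 2 zinc mutant Dex libraries, grouped by genotype and treatment in the labels. Tools named in the submitters' processing notes, without role or order, are MACS2 2.1.0, BWA 0.7.13 and Picard 1.119, and the build is mm10. The deposited Dex files carry FDR005 in their names and hold 1 list per library, while the Dex and LPS lists are merged over libraries with knockout peaks removed, per the file names. The values deposited by the authors are positions, widths and distances in base pairs, with no score. Control libraries, filters and depth are not given in the sources used here.

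Peaks were compared with Python 3.11.15, pandas 2.3.3, numpy 2.4.6 and scipy 1.17.1, with an overlap of at least 1 bp (code checked on simulated data and against bedtools 2.31.1), and figures were drawn with matplotlib 3.10.9. Quantities per library were tested with the two-sided exact permutation test and Benjamini-Hochberg adjustment. Shares carry 95% exact (Clopper-Pearson) intervals, and a count of 0 allows up to 3 counts. Promoter sequences are from RefSeq (GRCm38.p6), and all gene names of the 4 lists matched its gene table. No genome was used here, so the sequence under other peaks was not searched. The members and gene lists were chosen with earlier results of these data known. Named genes were those of the lists with a peak, those of the 20 widest regions in both wild-type libraries alone (outside chromosomes 10 to 14 and Y, in or within 10 kb of the gene), of all regions in both mutant libraries alone and of the 15 widest in all libraries, and the gene with most peaks in each library. Alternatives were the chromosomes used, each library left out, a replicate block, a minimum width of 300 bp, joined peaks, and other overlaps and distances.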

Additional observations from a re-analysis of the deposited data

How the results depend on the processing

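The 8 differences between genotypes kept their direction under 70 of 73 alternatives, none of which could reach 0.05. The median distance to the gene start turned from wild-type peaks 13.7 kb nearer to 14.8 kb farther without chromosomes 10 to 14 and Y. The median width turned to wild-type peaks 3.0 bp wider with peaks of at least 300 bp, and ranged from -61.3 to 20.8 bp (wild type minus mutant) when each library was left out. The other leave-one-out ranges were 2.87 to 3.92 for log2 peaks, 2.71 to 3.91 for log2 bases, 2.73 to 3.51 for log2 genes, -5.09 to -4.22 points inside genes, -5.95 to -3.28 points within 5 kb, -22.1 to -5.31 kb and 23.1 to 27.9 points on chromosomes 10 to 14 and Y. Replicate numbers are shared by the groups but nothing in the labels ties them to a litter or day. Deviations of same-numbered libraries gave r = -0.03 over 1107 regions. Only 77 of these regions had a mutant peak, and 8 were in 1 library of each genotype. This r therefore cannot show whether same-numbered libraries were paired. With the replicate block the differences were the same (log2 peaks 3.40, bases 3.31, genes 3.12; -4.66, -4.61 and 25.5 points; -13.7 kb; -20.3 bp), with a sign-flip exact permutation p of 0.5, the smallest possible, or 1 for width.

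Shares moved beyond their counting interval in 22 of 75 alternatives. Without chromosomes 10 to 14 and Y, wild-type peaks found in the other library came to 57.1% and 32.5%, those overlapping a mutant peak to 19.3% and 14.6%, and those of library 2 overlapping a Dex and LPS peak to 16.0%. With peaks of at least 300 bp, 16.8% of wild-type library 2 and 83.3% of mutant library 2 were found in the other library, 14.01% of wild-type library 1 and 87.5% of mutant library 2 overlapped the other genotype, and 0% of mutant library 2 overlapped a Dex and LPS peak. A gap of 500 bp gave 24.2% of wild-type library 2 found in library 1, and 36.2% and 36.0% of the wild-type libraries near a Dex and LPS peak. An overlap of 50% of the shorter peak gave 20.3% for library 2. A gap of 2 kb, chosen after seeing the data like the omission of runs, gave 63.6%, 61.2%, 7.55% and 11.7% in wild-type libraries 1 and 2 and mutant libraries 1 and 2. Leaving out 1 library of the other genotype, overlap ranged from 7.28 to 7.52% and from 3.98 to 4.57% for wild-type libraries 1 and 2, and from 62.3 to 79.2% and from 53.3 to 61.7% for the mutant libraries. With up to 1 mismatch the response element was in 0% of the 8 promoters, and with its exact core in 25%. The causes of these moves were not tested. The element in peak sequence was not run because no genome was used here, and unknown depth limits every statement about a peak not called.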

Other observations

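Mutant-bound promoters included Slc39a10, which encodes a zinc transporter: mutant library 1 had a 256 bp peak over it, inside the gene by the deposited annotation, and its nearest Dex and LPS peak lay 0.264 kb away. Fut8, a fucosyltransferase gene, had a 445 bp peak over one of its promoters in wild-type library 2, with the nearest Dex and LPS peak 17.6 kb away. The Slc39a10 stretch had 77.8% G and C and the Fut8 stretch 37.3%, and the response element was in neither with up to 2 mismatches.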
